A study of Mus musculus with 10 samples.

Results

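The genes described here are 10 members of the lysosomal protease system of mouse alveolar macrophages: the cathepsins Ctsb, Ctsc, Ctsd, Ctsh, Ctsk, Ctsl, Ctss and Ctsz, the asparaginyl endopeptidase legumain (Lgmn) and the secreted protease inhibitor cystatin C (Cst3). They were taken by gene symbol and not by a rule on their values, although earlier results of these data were known. From a table of 26173 genes all 10 were found, as 14 transcripts. All 10 were among the 11336 genes that reached 1 FPKM (fragments per kilobase of transcript, scaled to each sample's mapped total) in at least 2 samples. The lowest value of any member in any sample was 72.4 FPKM, and the highest was 13045 FPKM.

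Macrophage RNA was sequenced from C57BL/6 mice, labelled female and 16 weeks old, in 5 groups of 2 samples. In the first line Bach2, which encodes a transcription repressor of lymphocytes and macrophages, carried loxP sites and was cut by a Cre under the Cd4 promoter, which acts in T cells, so that the macrophages themselves need not have lost the gene. Knockout mice of this line (Bach2-floxed CD4cre_KO) gave an aberrant-marker group, with surface markers unlike those of controls, and a normal-marker group, with the surface markers of controls. Their reference was the conditional control (Bach2-floxed CD4cre_control). The second line was the Bach2 germline knockout, set against wild type.

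Lysosomal cathepsins are made as inactive precursors and become active in the acid of endosomes and lysosomes, where they break down proteins taken up from outside or delivered by autophagy. Most of them are papain-like cysteine proteases, Ctsd is an aspartic protease, and legumain is a cysteine protease of another family that cuts after asparagine. Cystatin C binds the active site of papain-like cathepsins, and human cystatin C also inhibits legumain at a second site. In macrophages and dendritic cells the same enzymes cut internalised antigen and the invariant chain that fills the groove of class II molecules.

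The 2 samples of each group were far more alike than samples of different groups, as repeat runs of 1 library would be. Their log2 values correlated across genes at 0.993 to 0.998, against 0.685 to 0.853 between groups. Where a gene stood at 1 to 3 FPKM in one sample, it was absent from the other sample of that group in 0 to 0.202% of cases, and from a sample of another group in 10.7 to 25.0%. Each pair was therefore averaged and counted as 1 library, so that every comparison below sets 1 library against 1 library and has no p-value. Members differed between the 2 samples of a group by 0.130 to 7.02% of the lower sample, with a median of 1.27%, which measures sequencing and not mice. Estimated depth was 7.51 to 9.36 M fragments a sample, and the member with the fewest fragments had about 1295. Differences under about 0.1 log2 units are near the size of the spread between samples and are given as values only. A member is called where its mean log2(FPKM + 1) and every pairing of 1 sample per group differ by at least 2 log2 units (4-fold) and its higher library has at least 20 FPKM. A 2-fold threshold is given beside it.

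The labels could be checked in part. Bach2 itself averaged at most 0.0571 FPKM in every library, controls included, so its loss could not be seen at this depth. The labels give all mice as female, but the Y-linked gene Eif2s3y averaged 39.9 FPKM in the germline knockout and 60.8 FPKM in wild type, against at most 0.107 FPKM in the conditional line. Xist, the X-inactivation RNA, averaged 9.08, 6.83 and 3.75 FPKM in the aberrant-marker, normal-marker and conditional control libraries and at most 0.00237 FPKM in both libraries of the germline line. The 2 lines therefore differ in more than the Bach2 allele, and comparisons are made within a line unless stated.

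The 7 cysteine cathepsins share the stretch around the cysteine that attacks the peptide bond. The coding sequence around that codon (30 bases each, from GENCODE M21 transcripts, catalytic cysteine codon in capitals) is shown because it marks them as one family and is where relatives could share reads.
Ctsb: ggctcctgcggctctTGTtgggcatttggg
Ctsc: gaatcttgtggaagcTGCtactcatttgcc
Ctsh: ggggcctgtggcagcTGCtggactttctct
Ctsk: ggccagtgtggttccTGTtgggctttcagc
Ctsl: ggccagtgcgggtctTGTtgggcgtttagc
Ctss: ggttcttgtggtgccTGCtgggctttcagt
Ctsz: cagtactgtggttccTGCtgggcccacggc
The codon is number 138 of the Ctsl reading frame, 139 of Ctsk, 150 of Ctss, 108 of Ctsb, 139 of Ctsh, 257 of Ctsc and 94 of Ctsz. The closest pair, Ctsk and Ctss, was 61.9% identical over the longer coding sequence, followed by Ctsk and Ctsl at 60.3% and Ctsl and Ctss at 60.0%. The longest run of bases shared exactly by any pair of member transcripts was 17. Ctsk and Ctss lie close together on chromosome 3 with 1 annotated gene between them, Gm40096.

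Among the cysteine endopeptidases, Ctss, which cuts the invariant chain in antigen-presenting cells and stays active at neutral pH, was the most abundant in every library. Ctss measured 3678 and 3742 FPKM in the aberrant-marker samples and 3911 and 3919 FPKM in the normal-marker samples, against 3839 and 3823 FPKM in the conditional controls. In the germline line it measured 8218 and 8159 FPKM in knockout samples, against 3684 and 3716 FPKM in wild type. The germline knockout thus stood alone at a high level, and the aberrant-marker and wild-type samples overlapped.

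Ctsl, a broad endopeptidase, measured 206 and 207 FPKM in the aberrant-marker samples and 462 and 468 FPKM in the normal-marker samples, against 227 and 226 FPKM in the conditional controls. It measured 834 and 851 FPKM in germline knockout samples, against 189 and 185 FPKM in wild type. Ctsk, best known as the collagen-degrading enzyme of osteoclasts, measured 404 and 393 FPKM in the aberrant-marker samples and 1071 and 1080 FPKM in the normal-marker samples, against 427 and 428 FPKM in the conditional controls. It measured 1215 and 1227 FPKM in germline knockout samples, against 559 and 552 FPKM in wild type. Both genes were highest in the germline knockout and next highest in the normal-marker library, and in both the aberrant-marker library lay slightly below its control, with no overlap of samples, although its Ctsl level lay above wild type.

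Of the cysteine cathepsins that trim the ends of peptides, Ctsb, which is both an endopeptidase and a carboxydipeptidase, measured 785 and 769 FPKM in the aberrant-marker samples and 857 and 864 FPKM in the normal-marker samples, against 538 and 546 FPKM in the conditional controls. It measured 1953 and 1967 FPKM in germline knockout samples, against 556 and 540 FPKM in wild type. Both knockout fractions lay above their control, and the wild-type and conditional control samples overlapped. Ctsz, a carboxypeptidase also called cathepsin X, measured 2427 and 2424 FPKM in the aberrant-marker samples and 1839 and 1867 FPKM in the normal-marker samples, against 1150 and 1139 FPKM in the conditional controls. It measured 3389 and 3418 FPKM in germline knockout samples, against 1249 and 1227 FPKM in wild type. All 3 knockout libraries lay above both controls in Ctsb and in Ctsz.

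Ctsc, the dipeptidyl peptidase that activates granule serine proteases, measured 207 and 216 FPKM in the aberrant-marker samples and 768 and 808 FPKM in the normal-marker samples, against 639 and 628 FPKM in the conditional controls. It measured 303 and 308 FPKM in germline knockout samples, against 593 and 596 FPKM in wild type. Ctsc was low in the aberrant-marker and germline knockout libraries and high in the other 3, without overlap. Ctsh, an aminopeptidase that in lung epithelium takes part in processing surfactant protein precursors, measured 420 and 428 FPKM in the aberrant-marker samples and 416 and 410 FPKM in the normal-marker samples, against 397 and 385 FPKM in the conditional controls. It measured 275 and 279 FPKM in germline knockout samples, against 411 and 440 FPKM in wild type. The germline knockout lay lowest for Ctsh, and wild-type samples overlapped with both fractions of the conditional knockout.

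Ctsd, the aspartic endopeptidase, was the most abundant member except in the aberrant-marker library. It measured 2183 and 2170 FPKM in the aberrant-marker samples and 8225 and 8239 FPKM in the normal-marker samples, against 6101 and 6092 FPKM in the conditional controls. It measured 10567 and 10589 FPKM in germline knockout samples, against 5455 and 5544 FPKM in wild type. Among all genes its mean ranked 36th in the aberrant-marker library, 7th in the normal-marker library and 8th in the conditional control, and 5th in the germline knockout and 7th in wild type.

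Lgmn, the least abundant member in the controls, measured 331 and 335 FPKM in the aberrant-marker samples and 171 and 170 FPKM in the normal-marker samples, against 94.6 and 97.8 FPKM in the conditional controls. It measured 379 and 374 FPKM in germline knockout samples, against 73.3 and 72.4 FPKM in wild type. All 3 knockout libraries lay above both controls. Cst3, the inhibitor, measured 13045 and 12956 FPKM in the aberrant-marker samples and 1020 and 1027 FPKM in the normal-marker samples, against 1041 and 1086 FPKM in the conditional controls. It measured 1871 and 1919 FPKM in germline knockout samples, against 854 and 856 FPKM in wild type. In the aberrant-marker library Cst3 was the 3rd most abundant of all genes, against a rank of 67 in the normal-marker library and 64 in the conditional control.

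**Figure D1:**
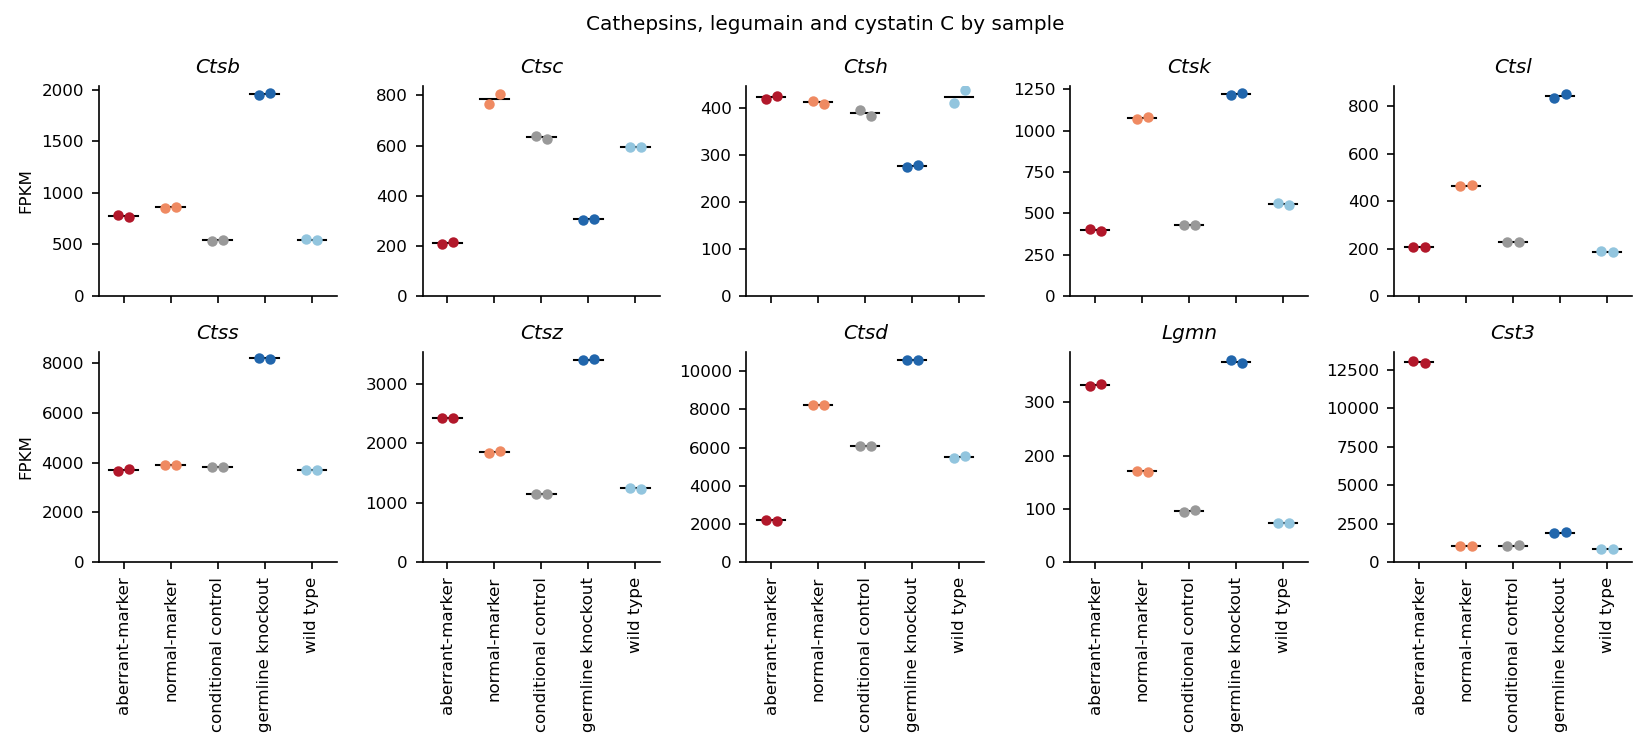
FPKM of each of the 10 genes in each of the 10 samples, on linear axes that start at 0, with a point for each of the 2 samples of a group and a line at their mean. The germline knockout is highest for 7 of the genes, among them Ctss at 8159 FPKM or more, whereas Cst3 is highest in the aberrant-marker samples and Ctsc and Ctsd are lowest there.

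Germline loss of Bach2 was compared with wild type to see which proteases differ when every cell lacks the gene. Lgmn was 5.17-fold and Ctsl 4.50-fold higher in the germline knockout library, at 2.35 and 2.16 log2 units. Ctsb was 3.57-fold higher, Ctsz 2.75-fold, Cst3 2.22-fold, Ctss 2.21-fold, Ctsk 2.20-fold and Ctsd 1.92-fold. Ctsh was 1.54-fold lower and Ctsc 1.94-fold lower in the knockout. In every pairing of samples 8 members were higher and 2 were lower in the knockout, where 39.9% and 45.8% of all genes were, and 46.0% and 49.7% of the 959 genes that average 100 FPKM or more. Separation of the samples is therefore usual here and shows direction, not size.

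By the 4-fold rule 2 of 10 members were called higher in the germline knockout and 0 were called lower, where 2.73% and 3.36% of all 11336 genes were. At 2-fold, 7 were higher and 0 lower, where 6.13% and 8.98% of all genes were. Because all members are abundant, the same shares were also taken among the 959 abundant genes, and these were 9.80% higher and 15.0% lower. The members' median difference was 1.15 log2 units, against 0.00 over all genes and -0.03 over the abundant ones. With the conditional control library in place of wild type, Ctsl came to 1.89 and Lgmn to 1.96 log2 units, so that neither reached 4-fold, while the median of the members was 1.30.

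Other cell markers moved with this comparison. The 7 markers of monocyte-derived macrophages summed to 386 and 391 FPKM in the germline knockout samples with 6 of 7 at 1 FPKM or more, against 0 of 7 at that level in wild type. C1qb, a complement subunit made by such cells, averaged 154 FPKM in the knockout and was listed at 0 in wild type. The 9 dendritic cell markers summed to 157 and 161 FPKM in the knockout samples with 4 of 9 at 1 FPKM or more, against 64.2 and 72.0 FPKM with 3 of 9 in wild type, and Flt3 and Cd209a were below 1 FPKM in both. Ccr7, the receptor of migrating dendritic cells, averaged 71.6 FPKM in the knockout, against 0.0333 FPKM in wild type. The T cell receptor chains Cd3e and Cd3g were listed at 0 in both libraries. The 8 T cell markers summed to 24.5 and 25.3 FPKM in the knockout samples, against 446 and 464 FPKM in wild type. Cd2 made up nearly all of this and was called lower, at 24.9 FPKM, against 455 FPKM. The 5 neutrophil markers summed to 45.5 and 55.5 FPKM, against 14.9 and 15.8 FPKM, with S100a8 called higher. The 5 lung epithelial markers summed to 73.5 and 75.4 FPKM, against 170 and 172 FPKM, with Epcam called lower. The 9 alveolar macrophage markers found summed to 47401 and 47640 FPKM in the knockout samples, against 11391 and 11567 FPKM in wild type, with 8 of 9 at 1 FPKM or more, against 9 of 9. Most of that sum is the chitinase-like gene Chil3, at 46574 FPKM in the knockout, against 9278 FPKM in wild type, and the markers' median difference was -0.94 log2 units. By the 4-fold rule 1 of 9 was higher (Chil3) and 3 were lower, where 2.73% and 3.36% of all genes were. The scavenger receptor Marco averaged 13.5 FPKM in the knockout, against 339 FPKM in wild type, Siglec5 0.0247 FPKM, against 151 FPKM, and the keratin Krt79 4.2 FPKM, against 370 FPKM. The part of these cells in the protease differences was not tested. In bulk RNA, more cells of a type and more RNA per cell cannot be told apart.

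The aberrant-marker library was set against the conditional control to see how cells with altered surface markers differ, and its members went in opposite directions. Cst3 was 12.2-fold higher at 3.61 log2 units, Lgmn 3.47-fold, Ctsz 2.12-fold and Ctsb 1.43-fold higher. Ctsc was 2.99-fold lower and Ctsd 2.80-fold lower, at -1.58 and -1.49 log2 units. Ctsh differed by 0.12, Ctsk by -0.10, Ctsl by -0.13 and Ctss by -0.05 log2 units, all smaller than the largest difference between the 2 control libraries given below. Ctss changed sign under median ratio scaling.

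By the 4-fold rule 1 of 10 members, Cst3, was called higher and 0 lower, where 4.09% and 3.76% of all genes were. At 2-fold 3 members were higher (Cst3, Lgmn and Ctsz) and 2 lower (Ctsc and Ctsd), where 8.60% and 9.13% of all genes were, and 15.8% and 21.2% of the abundant genes. The share of members called lower was therefore close to that of abundant genes. The members' median was 0.04 log2 units, against 0.00 over all genes and -0.07 over abundant genes. With wild type in place of the conditional control, Lgmn came to 2.18 log2 units and was called as well.

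Markers of several other cells were high in the aberrant-marker library. The dendritic cell markers summed to 3462 and 3494 FPKM in its samples with 7 of 9 at 1 FPKM or more, against 29.4 and 31.9 FPKM with 4 of 9 in the conditional control. Ccr7 averaged 1564 FPKM, against 0.0937 FPKM in the conditional control, and Flt3, the receptor of dendritic cell precursors, averaged 37.3 FPKM, against 0 FPKM. Clec9a and Xcr1 of the same list went the other way. Both were below 1 FPKM in the aberrant-marker library, against 1.90 and 2.09 FPKM in the conditional control. The monocyte-derived macrophage markers summed to 908 and 912 FPKM in the aberrant-marker samples with 6 of 7 at 1 FPKM or more, against 14.2 and 14.5 FPKM with 4 of 7 in the conditional control. Of the 8 T cell markers 7 reached 1 FPKM in the aberrant-marker library, among them Cd3e at 17.7 FPKM, against 2 in the conditional control, although their sum was 184 and 185 FPKM, against 331 and 334 FPKM, because Cd2 alone averaged 45.7 FPKM, against 330 FPKM. All 5 B cell markers were listed at 0 in every library.

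The alveolar macrophage markers summed to 8567 and 8679 FPKM in the aberrant-marker samples with 7 of 9 at 1 FPKM or more, against 10886 and 11094 FPKM with 9 of 9 in the conditional control. Marco averaged 0.258 FPKM and Siglec5 0.134 FPKM in the aberrant-marker library, against 224 and 197 FPKM in the conditional control, so these defining markers of the labelled cell type were nearly absent, as Siglec5 was in the germline knockout. Most of the sum is Chil3, at 8291 FPKM, against 9166 FPKM. By the 4-fold rule 0 of 9 markers were higher and 5 lower, where 4.09% and 3.76% of all genes were. The part of these cell types in the values of Cst3, Lgmn, Ctsc and Ctsd was not tested.

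The normal-marker library was set against the same conditional control, which asks whether macrophages that keep their surface markers differ in knockout mice. Ctsk was 2.52-fold and Ctsl 2.05-fold higher in the normal-marker library, at 1.33 and 1.03 log2 units. Lgmn was 1.77-fold, Ctsz 1.62-fold, Ctsb 1.59-fold, Ctsd 1.35-fold and Ctsc 1.24-fold higher. Ctsh and Ctss differed by 0.08 and 0.03 log2 units and Cst3 by -0.05, whose sign changed under median ratio scaling.

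No member was called at 4-fold, where 0.935% of all genes were called higher and 0.838% lower. At 2-fold, 2 members were higher and 0 lower, where 3.34% and 4.04% of all genes were. Among the 959 abundant genes 3.44% were higher and 1.25% lower at 2-fold. In every pairing the normal-marker library lay above the control for 9 members and below it for 1, where 38.2% and 45.6% of all genes did, and 37.5% and 54.0% of the abundant ones. These 9 and 1 include Ctss, Ctsh and Cst3, whose differences were under 0.10 in size. The members' median was 0.55 log2 units, against 0.00 over all genes and -0.08 over abundant genes. Ctsc, Ctsd and Cst3 were among the members that differed by 2-fold or more between the aberrant-marker library and the conditional control. In the normal-marker library these genes were within 1.35-fold of that control. Ctsc was also low in the germline knockout. In the normal-marker samples the dendritic cell markers summed to 64.5 and 76.4 FPKM with 4 of 9 at 1 FPKM or more, against 29.4 and 31.9 FPKM with 4 of 9 in the conditional control, and Flt3 was listed at 0 in both. The monocyte-derived macrophage markers summed to 39.2 and 45.4 FPKM with 3 of 7 at 1 FPKM or more, against 14.2 and 14.5 FPKM with 4 of 7, and C1qa was listed at 0 in both. The alveolar macrophage markers summed to 30123 and 30456 FPKM, against 10886 and 11094 FPKM, with 9 of 9 at 1 FPKM or more in both. Most of that sum is Chil3, at 27735 FPKM in the normal-marker library, against 9166 FPKM. Of the 9 markers 3 were higher and 2 lower at 2-fold, where 3.34% and 4.04% of all genes were. Marco averaged 168 FPKM, against 224 FPKM, and Siglec5 94.1 FPKM, against 197 FPKM. Their part in the member values was not tested.

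The aberrant-marker library can also be set directly against the normal-marker library, since both came from knockout mice. Cst3 was 12.7-fold higher in the aberrant-marker library and Lgmn 1.96-fold higher, whereas Ctsd was 3.78-fold, Ctsc 3.72-fold, Ctsk 2.70-fold and Ctsl 2.25-fold lower. Ctsz was 1.31-fold higher, and Ctsb, Ctsh and Ctss differed by -0.15, 0.04 and -0.08 log2 units. At 4-fold 1 member was higher and 0 lower, where 4.02% and 3.26% of all genes were. At 2-fold 1 was higher and 4 were lower, where 9.27% and 8.19% of all genes were, and 16.5% and 20.2% of the abundant genes. The median was -0.11 log2 units, against 0.02 over all genes. The 2 fractions share their control, so their differences from it are not independent of each other. They also differ in other cells, with Ccr7 at 1564 FPKM in the aberrant-marker library and 0.0641 FPKM in the normal-marker library.

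The distance between the 2 control libraries shows how far members differ with no Bach2 contrast. It spans line, labelled genotype and the difference in the sex-linked transcripts Eif2s3y and Xist given above. Wild type minus conditional control ranged over the 10 members between -0.40 log2 units for Lgmn and 0.38 for Ctsk. None was called at 4-fold, where 0.935% of all genes were called higher and 1.17% lower, or at 2-fold, where 3.81% and 4.15% of all genes were, and 1.77% and 2.82% of the abundant ones. The median was -0.07 log2 units. Every member difference described above as 2-fold or more was larger than this distance, but 1 pair of libraries gives no estimate of how often such a distance would be exceeded.

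**Figure D2:**
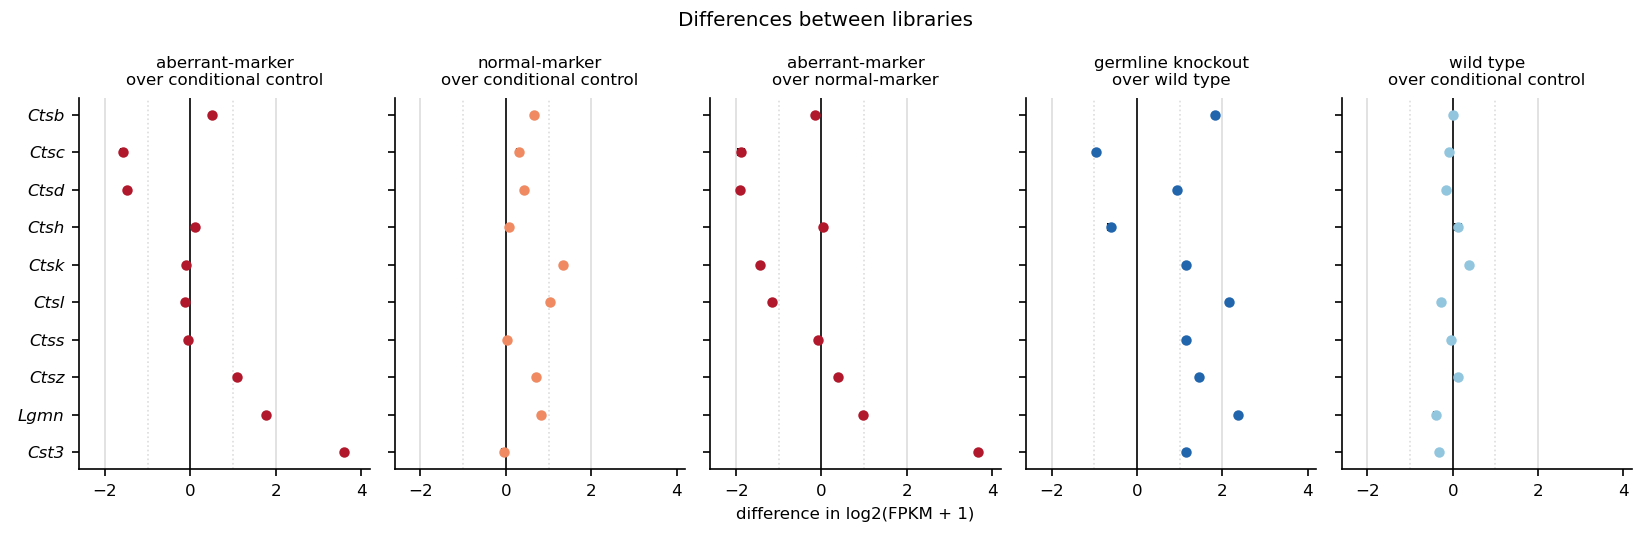
Difference in log2(FPKM + 1) of each gene in the 5 comparisons, with points for the mean of each library and bars for the range over pairings of samples, which the symbols mostly hide. Solid grey lines mark 4-fold and dotted lines 2-fold. The wild-type minus conditional control points stay between -0.40 and 0.38, while Cst3 reaches 3.61 in aberrant-marker minus conditional control and Lgmn 2.35 in germline knockout minus wild type.

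Because FPKM is a level per length, levels of different members can be set beside each other. The 7 cysteine cathepsins summed to 8153 FPKM in the aberrant-marker library and 9370 FPKM in the normal-marker library, against 7195 FPKM in the conditional control, and to 16198 FPKM in the germline knockout, against 7249 FPKM in wild type. Cst3 came to 1.59 times that sum in the aberrant-marker library and 0.109 times in the normal-marker library, against 0.148 in the conditional control. The ratio was 0.117 in the germline knockout, against 0.118 in wild type. The inhibitor's transcript level per length thus exceeded the sum of the 7 cysteine cathepsins in the aberrant-marker library, where the samples lay at 1.58 and 1.60. It stayed in close proportion to that sum in the germline line, where both were higher in the knockout. The sum leaves out Lgmn. These are levels of bulk RNA, not protein, and need not come from the same cells.

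The aspartic enzyme was set against the same sum, which Ctss and Ctsz dominate. Ctsd came to 0.267 times the cysteine cathepsin sum in the aberrant-marker library and 0.879 times in the normal-marker library, against 0.847 in the conditional control. It came to 0.653 times in the germline knockout, against 0.759 in wild type. Within the cysteine cathepsins, Ctss made up 45.5% in the aberrant-marker library and 41.8% in the normal-marker library, against 53.2% in the conditional control, and 50.6% in the germline knockout, against 51.0% in wild type. Ctsz made up 29.8% in the aberrant-marker library and 19.8% in the normal-marker library, against 15.9% in the conditional control, and 21.0% in the germline knockout, against 17.1% in wild type. Ctsc made up 2.60% in the aberrant-marker library and 8.41% in the normal-marker library, against 8.80% in the conditional control, and 1.89% in the germline knockout, against 8.20% in wild type. All 10 members together held 3.55% of the summed FPKM in the aberrant-marker library and 2.88% in the normal-marker library, against 2.22% in the conditional control, and 4.36% in the germline knockout, against 2.18% in wild type.

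**Figure D3:**
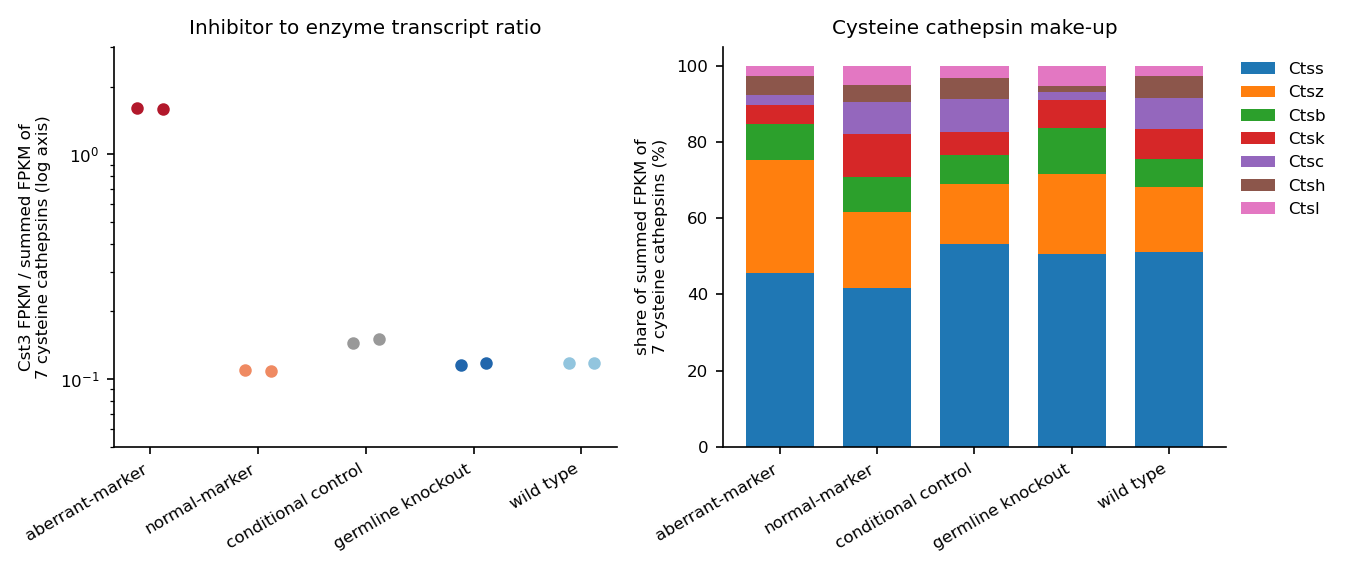
Ratio of Cst3 FPKM to the summed FPKM of the 7 cysteine cathepsins by sample on a log axis, and the share in percent of each cysteine cathepsin in that sum by library. The ratio lies at 1.58 and 1.60 in the aberrant-marker samples and at 0.151 or less in all others, and Ctss is the largest share in every library, between 41.8% and 53.2%.

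Transcript records within a gene gave little further difference. The second Ctss record, NM_001267695.2, held 25.4% and 24.7% of Ctss in the germline knockout samples, against 35.0% and 33.9% in wild type. Its share was 33.6% and 26.7% in the 2 normal-marker samples, so its spread between samples of 1 library covers most of that range. For Ctsl the predicted record XM_006517080.1 held between 81.9% and 85.4% in all samples. For Ctsc the predicted record XM_006507319.1 held 5.14% and 3.75% in the aberrant-marker samples and between 0.650% and 1.76% elsewhere, so the lower Ctsc level lay in its main record. Such shares are model estimates by eXpress.

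Upstream of the genes, the palindromic E-box CACGTG is the core of the site that the TFEB family of lysosomal regulators reads. RefSeq promoters (GRCm38.p6, 250 bases before to 50 after a start) were available for 8 of the 10 members, all but Ctsb and Ctsh, as 9 promoters. CACGTG occurred in the promoters of 3 members, Ctsd, Ctsl and Lgmn, against 7.15% of all 32851 promoters. The matches are shown with the motif in capitals, on the minus strand of the chromosome as the genes run. Any link between these matches and the differences between libraries was not tested.
Ctsd, 245 bases before the start, chr7:142388055-142388077: tccccCACGTGacctgtatccag
Ctsd, 98 bases before the start, chr7:142387908-142387937: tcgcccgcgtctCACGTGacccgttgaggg
Lgmn, 49 bases before 1 of its starts, chr12:102439124-102439153: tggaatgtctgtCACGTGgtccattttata
Ctsl, 236 bases before the start, chr13:64370739-64370768: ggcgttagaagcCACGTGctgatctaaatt
The looser E-box CANNTG, which includes CACGTG, was found in 6 of the 9 promoters, against 72.3% of all. Both strands were searched for 3 further motifs. The AP-1 site TGAGTCA was found in 0 of the 9, against 5.20% of all promoters. The MARE that Bach proteins bind with small Maf partners was found in 0 of the 9, against 0.289%. An exact match of the whole longer CLEAR palindrome was found in 0 of the 9, against 0.326%. Sites close to that palindrome were not counted, so the 0 does not show that the promoters lack them. The Ctsd match 98 bases before the start, with T before and A after CACGTG, was not counted. A match of letters does not show that a factor binds there.

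The transcripts of the TFEB family itself (Tfeb, Tfe3, Mitf and Tfec) were called in neither direction in the aberrant-marker library against its control or in the germline knockout against wild type. Tfec, a family member expressed in macrophages, averaged 7.49 FPKM in the aberrant-marker library and 46.9 FPKM in the normal-marker library, against 18.0 FPKM in the conditional control, and 69.8 FPKM in the germline knockout, against 79.6 FPKM in wild type. It was called lower in the aberrant-marker than in the normal-marker library, and higher in wild type than in the conditional control, so it varied between controls too.

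Genes that carry enzymes to the lysosome or acidify it were listed to see whether the system moved with its proteases. Of these 27 genes (sorting receptors, lysosomal membrane proteins and subunits of the proton pump), 0 were called in the germline knockout at 4-fold. Of all genes 2.73% were called higher and 3.36% lower. At 2-fold 5 were higher and 2 lower, where 6.13% and 8.98% of all genes were, and 9.80% and 15.0% of the abundant genes. The median was 0.44 log2 units. In the aberrant-marker library 1 was called, the sorting receptor Sort1, at 13.4 FPKM, against 116 FPKM in the conditional control. Of all genes 4.09% were called higher there and 3.76% lower. There 1 gene was higher and 5 were lower at 2-fold, where 8.60% and 9.13% of all genes were, and 15.8% and 21.2% of the abundant genes. The median there was -0.15. In the normal-marker library 2 were higher and 0 lower at 2-fold, where 3.34% and 4.04% of all genes were. The median was 0.27.

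Of 11 other lysosomal proteases, 10 were measured and 0 were called in the germline knockout or the aberrant-marker library against their controls, with medians of -0.10 and 0.17 log2 units. At 2-fold 2 were higher and 1 lower in each of these comparisons. The shares of all genes at 2-fold were 6.13% and 8.98% in the germline knockout, and 8.60% and 9.13% in the aberrant-marker library. At 4-fold they were 2.73% and 3.36%, and 4.09% and 3.76%. Napsa, an aspartic protease related to Ctsd, averaged 120 FPKM in the aberrant-marker library and 10.8 FPKM in the normal-marker library, against 50.1 FPKM in the conditional control. It was called lower in the normal-marker library against its control, and higher in the aberrant-marker than in the normal-marker library.

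Of 14 other protease inhibitors 6 were measured. Ctla2a, a mouse inhibitor that resembles a cathepsin propeptide, was called higher in the aberrant-marker library at 29.0 FPKM, against 0.265 FPKM in the conditional control. Serpinb1a, an inhibitor of granule serine proteases, was called lower there at 44.9 FPKM, against 241 FPKM, and lower in the germline knockout at 52.4 FPKM, against 310.2 FPKM in wild type. Cstb, the cytosolic cystatin B, averaged 719 and 671 FPKM in the aberrant-marker and normal-marker libraries, against 586 FPKM in the conditional control, and 1479 FPKM in the germline knockout, against 575 FPKM in wild type. Cst7, the leukocyte cystatin F, averaged 11.9 FPKM in the germline knockout and was listed at 0 in the other 4 libraries.

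The partners of these proteases in class II loading numbered 11. In the aberrant-marker library 4 were called higher (H2-Aa, H2-Eb1, H2-DMb2 and H2-Oa) and 0 lower, where 4.09% and 3.76% of all genes were. The median was 1.82 log2 units. At 2-fold 6 were higher and 1 lower, where 8.60% and 9.13% of all genes were. The lower one was H2-DMa, at 201 FPKM, against 416 FPKM in the conditional control. H2-DMb1 also lay below the control, at 209 FPKM, against 430 FPKM. Cd74, the invariant chain that Ctss cuts, averaged 21932 FPKM in the aberrant-marker library and 9336 FPKM in the normal-marker library, against 8695 FPKM in the conditional control. Its aberrant-marker difference was 1.33 log2 units, smaller in size than the -1.47 of wild type minus conditional control. At 2-fold 5 of the 11 partners were lower in wild type than in the conditional control, where 4.15% of all genes were. Among them were H2-Aa at -2.01 and H2-Eb1 at -1.79 log2 units. This list thus varied between controls too. Ifi30, a lysosomal thiol reductase, averaged 653 FPKM in the aberrant-marker library and 261 FPKM in the normal-marker library, against 366 FPKM in the conditional control. In the germline knockout 0 were called higher and 1, the peptide exchange subunit H2-DMa, lower at 58.6 FPKM, against 379 FPKM in wild type. By that rule 2.73% of all genes were called higher and 3.36% lower. At 2-fold 1 was higher and 2 were lower there, where 6.13% and 8.98% of all genes were. The median was 0.00 log2 units, and single partners ranged widely, between -3.52 and 3.34. Cd74 averaged 3092 FPKM in the germline knockout, against 3141 FPKM in wild type, and Ifi30 averaged 297 FPKM, against 292 FPKM.

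**Figure D4:**
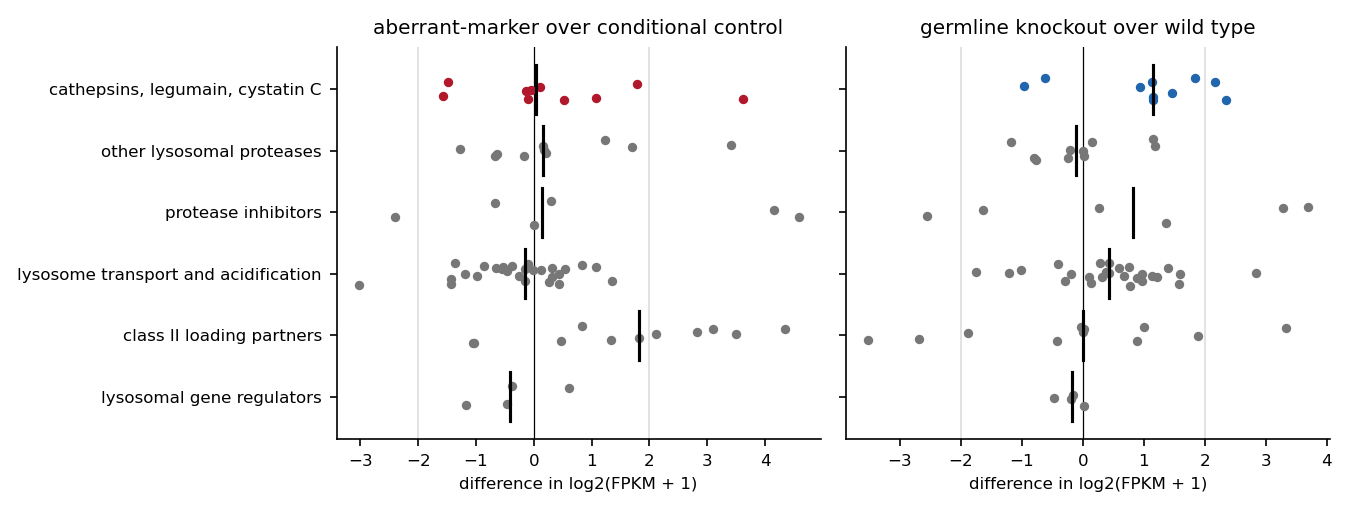
Differences in log2(FPKM + 1) of the members and of the genes in each list that entered, for aberrant-marker minus conditional control and for germline knockout minus wild type, with a point for each gene, a line for each list's median and grey lines at 4-fold. The members' median lies at 1.15 in germline knockout minus wild type and the class II partners' median at 1.82 in aberrant-marker minus conditional control.

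How alike the members were to each other was measured as the root mean square difference of their log2 profiles over the 5 libraries, each centred on its own mean. The nearest pair was Ctsb and Ctsz at 0.27 log2 units, followed by Ctsb and Ctss at 0.31 and Ctsk and Ctsl at 0.34. Ctsd was nearest to Ctsk at 0.45 and Lgmn to Ctsz at 0.40. Ctsc and Ctsh were nearest to each other, at 0.68. Cst3 was farthest from all, with Lgmn as its nearest member at 1.04. With 5 libraries, of which 2 are controls, these values describe the profiles and were not tested.

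Among all 5317 annotated genes that reached 20 FPKM in a library, the profile nearest to that of Ctsd was Tcirg1, a subunit of the lysosomal proton pump, at 0.09 log2 units. Ctsc was nearest to Man2b1, the lysosomal alpha-mannosidase, at 0.05. Ctsk was nearest to the chemokine Ccl6 at 0.12, Ctsl to the adhesion gene Cdh1 at 0.07, Ctss to the dipeptidyl peptidase Dpp9 at 0.08 and Ctsz to the mitochondrial membrane protein Tspo at 0.06. Ctsb was nearest to Rpf2 at 0.07, with the proton pump subunit Atp6v1c1 in 3rd place at 0.13, and Ctss had the pump subunit Atp6v0c in 3rd place at 0.12. Ctsh was nearest to the small GTPase Cdc42 at 0.02. Lgmn was nearest to the fatty acid carrier Fabp5 at 0.18. Cst3 had no close profile, with Cldn1, a tight junction gene, at 0.23, Irf5, an interferon regulatory factor, at 0.25 and Pkib at 0.26.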

How the data were processed

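Per the labels' protocols, cDNA was made from 100 pg of RNA per sample with a SMARTer low-input kit and 18 PCR cycles. No molecular identifiers are described, and strand marking is not given. The authors deposited FPKM for 45913 transcripts. Tools named in the submitters' processing notes are Bowtie 1.1.2 and eXpress 1.5.1, without a role; build and filters: not given in the sources used here. FPKM was summed per Entrez gene, 11336 genes with 1 FPKM or more in at least 2 samples entered, and 1 FPKM was added before the log2. Depth is approximate, being read off the lowest FPKM steps of 1-transcript genes with annotated lengths; no counting interval is given.

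Where the labels number samples, the number does not pair them. The test by limma that a replicated design would allow was not run, because the 2 samples of a group behave as repeat runs of 1 library. The calling rule was checked on simulated data with planted changes above its threshold and counting noise alone. That check holds no difference between mice or libraries, so it cannot show how often a call would recur. Members, lists and thresholds were chosen with earlier results of these data known. All members are named in every comparison; of lists, up to 4 called genes with the largest difference and Cst7, Cstb, Cd74, Ifi30, Napsa and Tfec; of profiles, the 3 nearest genes. The comparison with genes of mean 100 FPKM or more was added after the data were seen. Alternatives were other pseudocounts, scalings, filters and thresholds, the highest transcript alone, each sample left out, and the other control. Python 3.11.15, NumPy 2.4.6, pandas 2.3.3, Biopython 1.88 and Matplotlib 3.10.9 were used.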

Additional observations from a re-analysis of the deposited data

Results flagged for a closer look

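For 7 members, the difference from the control pointed one way in one knockout library and the other way in another, in every pairing of samples. By that standard 51.0% of all genes that entered and 53.5% of genes of mean 100 FPKM or more did so too, so the count alone does not set the members apart. The differences between these effects were not tested, since they rest on repeat runs of 1 library per group, and the aberrant-marker and normal-marker effects share the conditional control. Values are effect minus effect in log2 units.

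Between the aberrant-marker and normal-marker effects the gap was -1.89 for Ctsc, -1.92 for Ctsd, -1.43 for Ctsk, -1.17 for Ctsl, -0.0776 for Ctss and 3.67 for Cst3. For Ctss both effects were under 0.05 in size. Between the aberrant-marker and germline knockout effects the gap was -2.43 for Ctsd, 0.73 for Ctsh, -1.24 for Ctsk, -2.30 for Ctsl and -1.19 for Ctss. Between the normal-marker and germline knockout effects the gap was 1.27 for Ctsc, 0.70 for Ctsh and -1.20 for Cst3. Of the effects behind these gaps, those of Ctsh and Ctsl in the aberrant-marker library, Ctsh and Cst3 in the normal-marker library and Ctss in the aberrant-marker library changed sign when wild type replaced the conditional control.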

How the results depend on the processing

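At a threshold of 1 log2 unit, members called higher numbered 3 in the aberrant-marker library, 2 in the normal-marker library and 7 in the germline knockout, each against its own control, and members called lower numbered 2 in the aberrant-marker library against its control and 4 against the normal-marker library. With the other control library, 2 members were called higher in the aberrant-marker library and 0 in the germline knockout. The median of the members in the germline knockout moved to 1.24 with the highest transcript alone, 1.29 under median ratio scaling, 1.30 with the other control and 1.06 when samples were scaled to 1 sum. Under median ratio scaling it moved to 0.0836 in the aberrant-marker and 0.61 in the normal-marker library. For aberrant-marker minus normal-marker it was -0.15 with the highest transcript and -0.14 scaled to 1 sum, and for wild type minus conditional control -0.117 and -0.0145. Of 50 member differences, 4 changed sign under some setting other than another control, all of them at most 0.0546 in size. With the other control 5 of 30 changed sign, all at most 0.135 in size. Leaving out either sample of a group ended no call. No paired analysis was possible because no test was run and sample numbers are not shared between groups. Expression of Bach2 and of genes near 1 FPKM is limited by depth, but the members are not.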
